A study of Mus musculus with 8 samples.

Results

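Hox genes encode homeodomain transcription factors that give cells a position along the body axis. In the mouse they lie in the Hoxa, Hoxb, Hoxc and Hoxd clusters, where genes with the same paralog number descend from a common ancestor gene. Genes with low paralog numbers act in the hindbrain and neck and those with high numbers in the trunk, tail and distal limb, the order in which they lie along each chromosome. Polycomb complexes keep the clusters silent in pluripotent cells, and cultured fibroblasts are known to keep a Hox pattern of the site they came from. Of the 39 Hox genes in the RefSeq gene table, 33 had a probe set (a group of short oligonucleotides against the same transcript) listed with that gene alone, and these were the members described here, chosen by gene symbol out of 18193 genes measured. The other 6 were not analysed here, and 3 probe sets listed with a pair of Hox genes were left out. The 33 genes had 48 probe sets, 22 genes having 1 and 11 having several.

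RNA had been hybridised to Affymetrix arrays of the whole mouse genome. Primary mouse embryonic fibroblasts (MEF, 2 arrays) were grown in DMEM with fetal bovine serum. Neural precursor cells (NPC, 3 arrays) had been made from ES cells through embryoid bodies and selection in ITSFn medium, and kept in FGF2 and a factor the labels call EGF2. V6.5 mouse ES cells (3 arrays) were grown with LIF on irradiated MEF feeders, then kept for some passages on gelatin alone. All titles carry "wt". The labels give no age, body region or passage for the MEF, no donor number, and no statement that replicate arrays stem from separate cultures. The p-values therefore reflect the spread between these arrays alone, and that spread may be technical.

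The marker lists were checked against the labels. Over the 3 comparisons of cell types, 7.95% to 12.9% of all genes were called in a given direction. The 3 ES markers (Pou5f1, Nanog and Zfp42) were lower in both other cell types, the 4 fibroblast markers (Col1a1, Col1a2, Thy1 and Pdgfrb) were higher in MEF than in both others, and 3 of the 4 NPC markers (Nes, Fabp7 and Olig2, not Sox2) were higher in NPC than in ES cells. The 4 neuron markers had a summed intensity of 628 to 661 in MEF, 70.8 to 87.0 in NPC and 3118 to 3215 in ES cells, and Stmn2 and Nefl of this list were called lower in both MEF and NPC than in ES cells. Correlations of log2 values over the whole array were 0.992 between the MEF arrays, 0.967 to 0.987 between NPC arrays and 0.986 to 0.989 between ES arrays. The array of NPC replicate 1 (NPC 1) stood apart from NPC 2 and NPC 3. It lay at least 1 log2 unit from their mean in 4 of the 33 Hox genes (12.1%), against 4.51% of all genes, so Hox results that rest on it are given with and without it.

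Each Hox gene was read from its brightest probe set as normalized log2(intensity + 16), written below as log2 signal. On this scale an intensity of 0 is 4, and a fold change is understated for dim genes. A gene was called when its difference had a Benjamini-Hochberg adjusted p under 0.05 in limma, adjusted over all 18193 genes, and a size of at least 1 log2 unit. Folds below are ratios on the scale of intensity + 16, with the higher group over the lower. Paralog numbers 1 to 3 are called anterior, 4 to 8 central and 9 to 13 posterior. Probe sets bind with different strength, so values are compared between cell types and not between genes.

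The Hox signal differed in extent between the cell types. Summed over the 33 genes, the normalized intensity per array was 2713 and 2851 in MEF, 1081 to 1221 in NPC and 269 to 339 in ES cells. These array ranges did not overlap. Such a sum is weighted towards genes with bright probe sets. In NPC the greatest group intensities were those of Hoxa5 (372), Hoxd8 (209) and Hoxa3 (132). Of the 33 genes, 16 had a higher mean log2 signal in NPC than in ES cells. As a rough mark of dim signal, the 95th percentile of 39 olfactory receptor genes was taken in each cell type. The group mean lay above it for 25 of 33 Hox genes in MEF, 11 in NPC and 5 in ES cells, against 65.7%, 64.7% and 65.7% of all genes in these cell types. The mark itself was 5.01 in MEF, 4.86 in NPC and 4.98 in ES cells. Above the highest of the 39 olfactory receptor genes lay 25 Hox genes in MEF, 7 in NPC and 2 in ES cells, so the NPC and ES counts depend on the mark. In RNA from a whole culture, fewer cells of a type and less RNA per cell cannot be told apart.

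**Figure D1:**
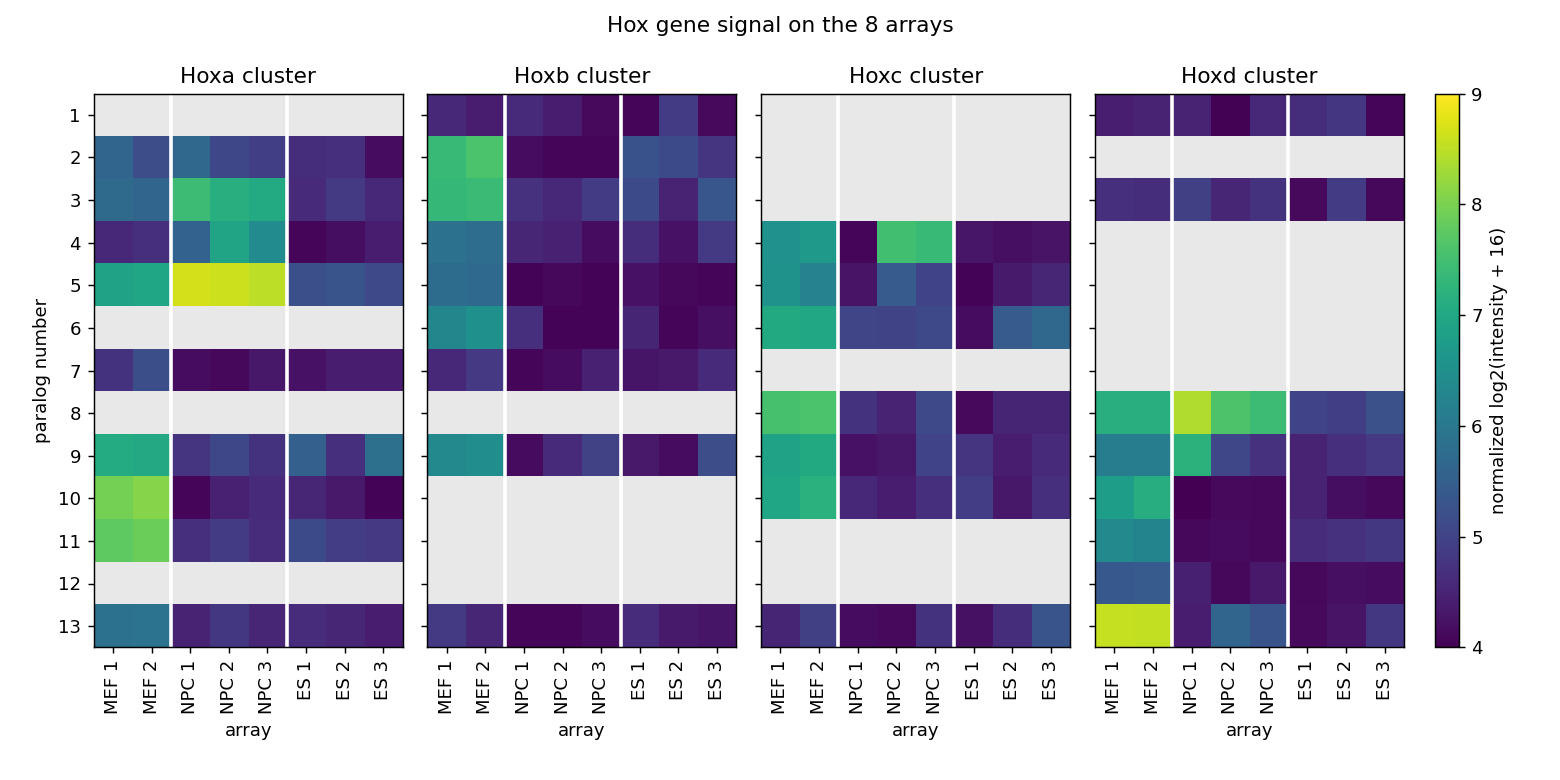
Normalized log2(intensity + 16) of 33 Hox genes on each array, with 1 panel per cluster, paralog number down the page and arrays across (MEF, then NPC, then ES, split by white lines). Grey fields have no gene analysed, and the colour scale runs from 4, an intensity of 0, to 9. In MEF signal is seen in all 4 clusters, in NPC mainly at Hoxa3, Hoxa4, Hoxa5, Hoxc4 and Hoxd8.

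The comparison of MEF with ES cells asks which Hox genes differ between a mesodermal primary cell and a pluripotent one. In MEF, 23 of 33 Hox genes were higher than in ES cells and 0 were lower, where 12.2% of all genes were called higher and 12.8% lower. Their median log2 difference was 1.69, against -0.042 over all genes. Differences were above 0 for 32 of 33 Hox genes, and for 27 both MEF arrays lay above all 3 ES arrays (31.2% of all genes), while 0 had both below (36.6% of all genes). At an unadjusted p under 0.05 the count of lower Hox genes was 0.

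All 4 clusters held called genes. Genes called higher were 6 of 9 in the Hoxa cluster on chromosome 6, 6 of 9 in the Hoxb cluster on chromosome 11, 6 of 7 in the Hoxc cluster on chromosome 15 and 5 of 8 in the Hoxd cluster on chromosome 2. By position, 3 of 7 anterior, 9 of 12 central and 11 of 14 posterior genes were called. The difference between these shares was not tested. By paralog number, every measured gene was called in groups 5 (3 of 3), 6 (2 of 2), 8 (2 of 2), 10 (3 of 3), 11 (2 of 2) and 12 (1 of 1), and 0 were called in groups 1 (of 2) and 7 (of 2).

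The posterior genes held the 2 greatest differences. Hoxd13, a gene of the digits and the genital bud, had a log2 signal of 8.55 in both MEF arrays, against 4.12, 4.26 and 4.81 in the ES arrays. Its log2 difference was 4.15 ± 0.36 (SE, 17.8-fold, limma adjusted p = 1.33e-05). Its second probe set differed by 2.51 in the same direction. Hoxa10, which patterns the lumbar spine and the uterus, had 7.95 and 8.09 in MEF, against 4.53, 4.34 and 4.04 in ES cells. It differed by 3.71 ± 0.22 (SE, 13.1-fold, limma adjusted p = 1.31e-06). That value rests on a probe set whose suffix marks sequence shared between transcripts, and the other Hoxa10 probe set differed by -0.058, with means of 4.39 in MEF and 4.45 in ES cells.

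Other posterior genes were also called higher in MEF. The median log2 difference from ES cells was 1.76 over the 14 posterior genes, 1.81 over the 12 central and 0.90 over the 7 anterior ones. Hoxa11 and Hoxd11, which act together in the forearm, were 2.86 ± 0.17 and 1.58 ± 0.14 higher in MEF (log2, SE). Hoxa11 had 7.76 and 7.87 in MEF, against 5.12, 4.91 and 4.83 in ES cells, and Hoxd11 had 6.35 and 6.25 in MEF, against 4.63, 4.71 and 4.80. In both genes the MEF arrays lay more than 1 log2 unit above every ES array. Hoxd10 (2.69 ± 0.18), Hoxc10 (2.44 ± 0.21) and Hoxc9 (2.37 ± 0.25), genes that among other roles specify motor neurons of the spinal cord, were higher as well. Hoxa9, a gene of blood progenitors, differed by 1.69 in the probe set used and by 3.78 in its other one, and both were called. Hoxa13 (1.36 ± 0.16), Hoxb9 (1.83 ± 0.33) and Hoxd12 (1.25 ± 0.14) complete the 11 posterior calls.

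The RefSeq promoter window of Hoxd13 is shown because this gene had the greatest difference of any Hox gene here. It runs from 250 bases before the annotated start to 50 after, at chr2:74667975-74668274 on the plus strand of GRCm38.p6, and holds 37 CG dinucleotides, against a median of 7 over 32851 windows of all genes. The capitals mark 2 overlapping matches to the TATA box letters TATAAA, 1 on each strand, starting 126 and 124 bases before the start.
Hoxd13: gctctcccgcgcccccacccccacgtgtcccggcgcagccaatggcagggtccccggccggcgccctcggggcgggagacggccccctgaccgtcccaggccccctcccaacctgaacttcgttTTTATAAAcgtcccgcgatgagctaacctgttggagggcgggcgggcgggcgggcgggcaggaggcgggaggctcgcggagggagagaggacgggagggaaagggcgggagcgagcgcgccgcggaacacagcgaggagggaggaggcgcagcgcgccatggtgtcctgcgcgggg
The letters TATAAA occurred on either strand in 13.6% of all windows and in 4 of 24 Hox windows, among the measured genes in Hoxa10 and Hoxd13. A match is a description of the letters only.

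Central genes gave 9 calls. Hoxc8, a gene of the thoracic skeleton, had 7.55 and 7.58 in MEF, against 4.12, 4.52 and 4.51 in ES cells, a log2 difference of 3.18 ± 0.22 (SE, limma adjusted p = 3.76e-06). Hoxb6 (2.14 ± 0.23), Hoxd8 (2.09 ± 0.27), Hoxc5 (2.07 ± 0.32), Hoxc6 (1.92 ± 0.38), Hoxa5 (1.70 ± 0.14), Hoxb5 (1.60 ± 0.13) and Hoxb4 (1.24 ± 0.21) were also higher in MEF. The second probe sets of Hoxa5 (0.18) and Hoxb4 (0.77) and a further probe set of Hoxc5 (0.026) were not called. Those of Hoxd8 (1.57) and Hoxc6 (2.27 and 1.17), and another of Hoxc5 (1.52), were called higher. The remaining central call, Hoxc4, had 6.54 and 6.69 in MEF, against 4.31, 4.21 and 4.26 in ES cells. The groups did not overlap, and the adjusted p was 0.0493 in limma, where all 8 arrays share an estimate of the spread. Without NPC 1 it was 6.99e-07, and over the alternatives it ran from 6.99e-07 to 0.181. Among the anterior genes Hoxb2 (2.45 ± 0.19) and Hoxb3 (2.38 ± 0.25), which act in the hindbrain and the head, were higher in MEF. Hoxb2 had 7.40 and 7.59 in MEF, against 5.26, 5.13 and 4.74 in ES cells. Hoxa3, a gene of the thymus and parathyroid, passed at 1.02 ± 0.19, just above the minimum of 1, and lost its call in 9 of 24 alternatives, 3 of which left out 1 array.

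The 10 Hox genes that were not called between MEF and ES cells were Hoxa2, Hoxa4, Hoxa7, Hoxb1, Hoxb7, Hoxb13, Hoxc13, Hoxd1, Hoxd3 and Hoxd9. Their log2 differences ran from -0.052 (95% interval -0.59 to 0.49, Hoxd1) to 1.43 (0.04 to 2.82, Hoxd9). Hoxd9 had 6.09 and 6.10 in MEF, against 4.49, 4.70 and 4.82 in ES cells, and limma gave an adjusted p of 0.0892. Without NPC 1, on which Hoxd9 was high, the adjusted p was 0.000103 (range over the alternatives 0.000103 to 0.244). Hoxb13 and Hoxc13, paralogs of Hoxd13 that act in the tail and in hair and nails, differed by 0.27 and 0.01.

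The MEF cultures also carried macrophage marker RNA. Of 6 macrophage markers, 4 (Lyz2, Tyrobp, Cd53 and Ptprc) were higher in MEF than in ES cells and 1 (Cd68) was lower. Of all genes, 12.2% were called higher and 12.8% lower. The summed intensity of the 6 markers was 962 to 989 in MEF, 79.8 to 103 in NPC and 335 to 348 in ES cells. None of the 6 was at an intensity of 0 in MEF, where the lowest log2 signal was 6.05 (Ptprc). Their part in the Hox differences was not tested.

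**Figure D2:**
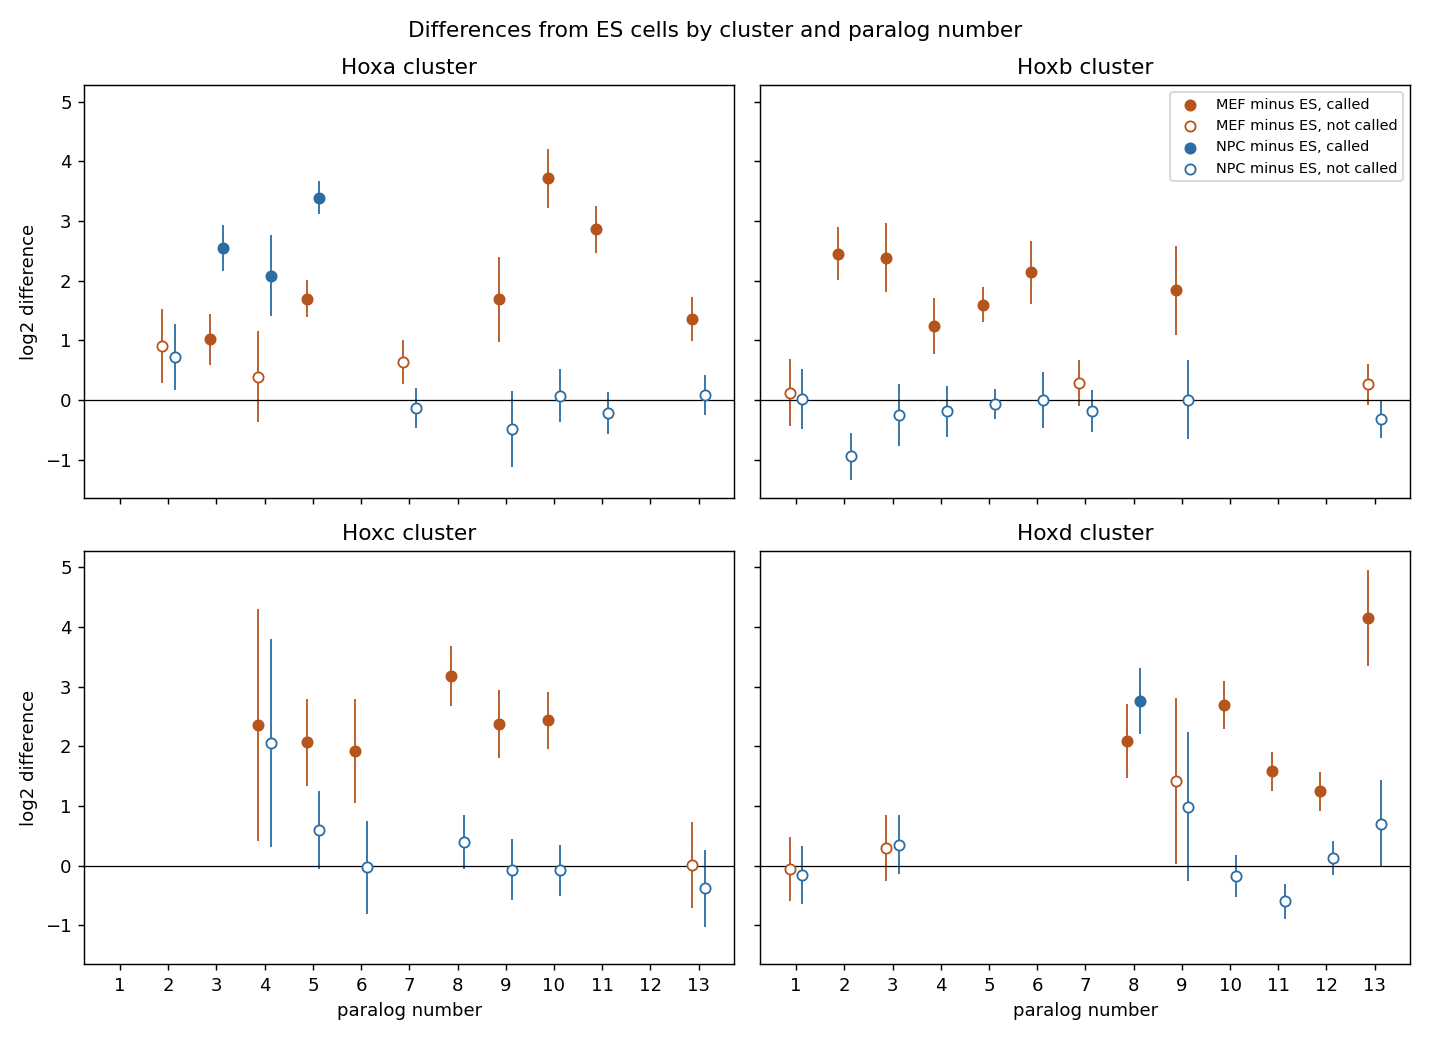
Log2 difference from ES cells (vertical axis) against paralog number, 1 panel per cluster, with 95% confidence intervals of the limma model as bars. MEF minus ES is drawn left of NPC minus ES, and filled points were called. MEF differences are filled in every cluster, and the 4 filled NPC points are Hoxa3, Hoxa4, Hoxa5 and Hoxd8.

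Next, NPC were set against ES cells, to see which Hox genes differ once ES cells had been turned into neural precursors. In NPC, 4 of 33 Hox genes were higher than in ES cells and 0 were lower, where 10.0% of all genes were called higher and 12.9% lower. The higher count is therefore near the background share, and the median Hox difference was -0.0039, against -0.046 over all genes. The 4 genes were Hoxa3, Hoxa4, Hoxa5 and Hoxd8, that is 1 of 7 anterior, 3 of 12 central and 0 of 14 posterior genes. All 3 NPC arrays lay above all 3 ES arrays for 5 Hox genes (23.4% of all genes), the 4 called and Hoxa2, and below them for 3 (29.4% of all genes), Hoxb2, Hoxb13 and Hoxd11. Both comparisons share the ES arrays, so they are not independent of each other.

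Hoxa3, Hoxa4 and Hoxa5 are neighbours in the Hoxa cluster. Hoxa5, which acts in the neck, lung and hindbrain, had 8.67, 8.63 and 8.50 in NPC, against 5.22, 5.29 and 5.11 in ES cells. Its log2 difference was 3.39 ± 0.12 (SE, 10.5-fold, limma adjusted p = 6.06e-08). A second Hoxa5 probe set, with a shared-sequence suffix, gave 0.74 (adjusted p = 0.0379 among all probe sets), below the minimum. Hoxa4, a gene of the neck vertebrae, had 5.58, 6.91 and 6.42 in NPC, against 4.07, 4.18 and 4.41 in ES cells, with a difference of 2.08 ± 0.30 (adjusted p = 0.000356 in limma). NPC 1 was lowest here, although it still lay above every ES array. A second Hoxa4 probe set, with a shared-sequence suffix, gave 0.67 and was not called.

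Hoxa3 depends on the probe set. The one used, with a shared-sequence suffix, had 7.44, 7.16 and 7.05 in NPC, against 4.59, 4.85 and 4.55 in ES cells, a difference of 2.55 ± 0.17 (limma adjusted p = 2.4e-06). A second Hoxa3 probe set had 6.01, 6.20 and 5.57 in NPC, against 5.35, 5.16 and 5.02 in ES cells, which is 0.75 higher and not called. The other 2 Hoxa3 probe sets differed by 0.085 and -0.39 and were not called. Hoxa3 is thus called in NPC by 1 of its 4 probe sets. Next to these genes, Hoxa2 had 5.68, 5.08 and 4.93 in NPC, against 4.66, 4.69 and 4.17 in ES cells, and its difference of 0.72 (adjusted p = 0.0371) was under the minimum. From Hoxa7 to Hoxa13, the 5 measured genes of the other end of the cluster differed by -0.49 to 0.09, and none was called.

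Hoxd8 was the one call outside the Hoxa cluster. It had 8.41, 7.61 and 7.42 in NPC, against 5.00, 4.93 and 5.24 in ES cells, 2.76 ± 0.24 higher (SE, 6.75-fold, limma adjusted p = 1.5e-05). Its second probe set gave 2.34 and was called too. In the Hoxb cluster 0 of 9 genes were called, and the differences ran from -0.94 to 0.01.

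The promoter windows of Hoxa5 and Hoxd8 are printed because these 2 genes had the greatest NPC differences, and that of Hoxc4 because its NPC arrays disagreed. All 3 are RefSeq windows of 300 bases on GRCm38.p6, at chr6:52204538-52204837 on the minus strand for Hoxa5, chr2:74704365-74704664 on the plus strand for Hoxd8 and chr15:103034145-103034444 on the plus strand for Hoxc4. The capitals mark AGGTCA, a core site read by retinoic acid receptors and other nuclear receptors, or its reverse complement. It starts at base 42 of the annotated transcript in Hoxa5 (its first base counted as 1), 135 bases before the start in Hoxd8 and 146 bases before it, on the other strand, in Hoxc4.
Hoxa5: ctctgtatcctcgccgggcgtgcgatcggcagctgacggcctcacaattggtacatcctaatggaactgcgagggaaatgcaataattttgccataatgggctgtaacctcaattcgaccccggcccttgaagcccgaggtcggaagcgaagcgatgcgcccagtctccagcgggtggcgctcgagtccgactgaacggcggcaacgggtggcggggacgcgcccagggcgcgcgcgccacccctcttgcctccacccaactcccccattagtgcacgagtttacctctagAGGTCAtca
Hoxd8: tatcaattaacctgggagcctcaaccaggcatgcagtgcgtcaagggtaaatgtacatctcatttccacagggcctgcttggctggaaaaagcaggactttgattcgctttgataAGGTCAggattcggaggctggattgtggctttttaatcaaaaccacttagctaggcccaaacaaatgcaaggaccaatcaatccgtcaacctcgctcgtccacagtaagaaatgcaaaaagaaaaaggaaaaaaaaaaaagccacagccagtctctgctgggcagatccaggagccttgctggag
Hoxc4: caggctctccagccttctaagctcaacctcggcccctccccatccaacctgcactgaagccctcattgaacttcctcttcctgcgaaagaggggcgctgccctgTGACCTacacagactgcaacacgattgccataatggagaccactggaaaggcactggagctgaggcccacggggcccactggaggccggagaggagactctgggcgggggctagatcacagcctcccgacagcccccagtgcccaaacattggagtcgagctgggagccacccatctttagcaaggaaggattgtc
On either strand AGGTCA occurred in 7 of 24 Hox windows and in 16.3% of all 32851 windows. Among the 19 measured Hox genes with a window it was found in 6, namely Hoxa5, Hoxb4, Hoxc4, Hoxd10, Hoxd3 and Hoxd8. Of these, Hoxa5 and Hoxd8 were called in NPC. The window of Hoxa3, also called in NPC, held no AGGTCA, and Hoxa4, the remaining NPC call, had no window. The letters TTTATG, read by Cdx factors, occurred in 11.9% of all windows and 5 Hox windows, and TGATTNAT, a joint site of Hox and Pbx proteins, in 3.2% and 2 Hox windows. The 3 motifs were searched on both strands, and a site can overlap another. The windows of Hoxa5, Hoxd8 and Hoxc4 held 29, 6 and 9 CG dinucleotides, and the median of the 21 windows of measured Hox genes was 15, against 7 over all windows.

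The NPC arrays did not agree on all Hox genes. Among them 5 Hox genes had a range above 1 log2 unit (Hoxa4, Hoxc4, Hoxc5, Hoxd9 and Hoxd13), against 7.05% of all genes. Hoxc4, a gene of the neck and the cervical spinal cord, had 4.09 in NPC 1, 7.48 in NPC 2 and 7.39 in NPC 3, against 4.31, 4.21 and 4.26 in ES cells. NPC 1 lay at the ES level and the other two about 3 log2 units above it. With all arrays the difference was 2.06 ± 0.77 (SE) and was not called (limma adjusted p = 0.0534). Without NPC 1 it was 3.19 (adjusted p = 9.11e-08), and the adjusted p ran from 9.11e-08 to 0.18 over the alternatives.

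Hoxd9, a gene of the limb and lumbar cord, was opposite. It had 7.21 in NPC 1, 5.07 in NPC 2 and 4.71 in NPC 3, against 4.49, 4.70 and 4.82 in ES cells, and its difference of 0.99 ± 0.55 was not called (limma adjusted p = 0.18). Without NPC 1 the difference was 0.22 (adjusted p = 0.391, range over the alternatives 0.0582 to 0.391). Hoxd13 was low in NPC 1 (4.38) and higher in NPC 2 and NPC 3 (5.63 and 5.30), against 4.12, 4.26 and 4.81 in ES cells. Its difference of 0.71 ± 0.32 (limma adjusted p = 0.103) became 1.07 without NPC 1 (adjusted p = 0.00257, range over the alternatives 0.00257 to 0.307). The second Hoxd13 probe set had 4.29, 4.07 and 5.07 in NPC, against 4.86, 4.88 and 4.11 in ES cells, a difference of -0.13 that was not called. In total the count of Hox genes higher in NPC was 6 without NPC 1.

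**Figure D3:**
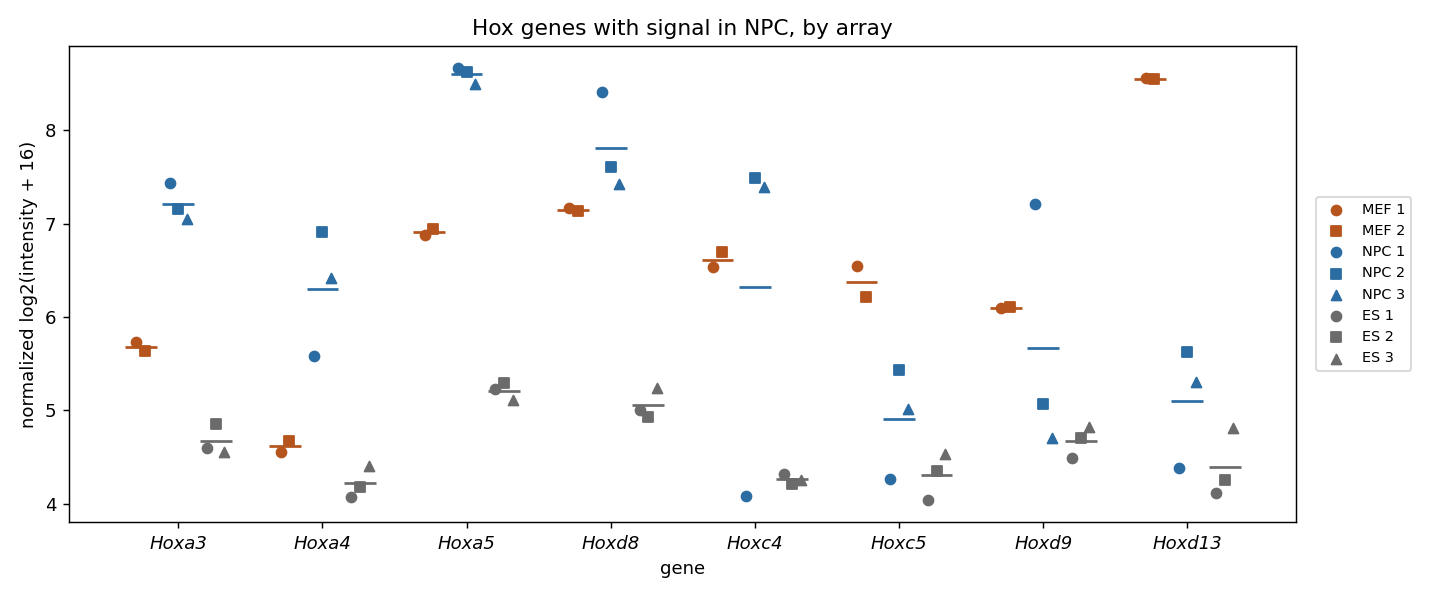
Normalized log2(intensity + 16) of 8 Hox genes on each array. Within a gene, MEF, NPC and ES follow from left to right, the marker shape gives the replicate number (circle 1, square 2, triangle 3) and the line is the group mean. NPC 1 lies with the ES arrays at Hoxc4 and above NPC 2 and NPC 3 at Hoxd9 and Hoxd8, while the Hoxa5 arrays lie close together.

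Below the ES level, Hoxb2 had 4.16, 4.07 and 4.07 in NPC, against 5.26, 5.13 and 4.74 in ES cells. Its difference of -0.94 ± 0.17 (limma adjusted p = 0.00165) missed the minimum of 1. Hoxd11 had 4.11, 4.15 and 4.10 in NPC, against 4.63, 4.71 and 4.80 in ES cells (-0.60, adjusted p = 0.00385). All these NPC values lie near the floor of 4, and with a pseudocount of 1 in place of 16, Hoxb2, Hoxd11 and Hoxb13 were called lower in NPC. Fibroblast markers moved the same way: 4 of 4 were called lower in NPC than in ES cells, where 12.9% of all genes were. The summed intensity of these markers was 27.6 to 49.8 in NPC and 222 to 240 in ES cells, while it was 21363 to 21610 in MEF. In NPC Pdgfrb (4.01 to 4.07) and Col1a1 (4.10 to 4.24) were near 0 intensity; without shared-sequence probe sets Pdgfrb differed by 0.081 between NPC and ES cells. Thy1, at -1.02, lost its call in 11 of 25 alternatives. The part of fibroblast RNA in the ES values was not tested.

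Set directly against each other, MEF and NPC differed in both directions. In MEF, 19 Hox genes were higher than in NPC (10.5% of all genes were called higher) and 3 lower (7.95% of all genes called lower), with a median log2 difference of 1.43, against -0.011 over all genes. The 3 lower in MEF were Hoxa3 (-1.53 ± 0.19), Hoxa4 (-1.69 ± 0.34) and Hoxa5 (-1.69 ± 0.14). The second probe sets of Hoxa4 and Hoxa5, both with a shared-sequence suffix, gave -0.46 and -0.56 and were not called. Both MEF arrays lay above all NPC arrays for 22 Hox genes (28.3% of all genes) and below them for 4 (29.7% of all genes), the fourth being Hoxd8 at -0.66 (limma adjusted p = 0.0871). This comparison shares its MEF and NPC arrays with the other two.

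Within the Hoxa cluster, genes were called in both directions. Hoxa9, Hoxa10, Hoxa11 and Hoxa13 were 2.18, 3.64, 3.08 and 1.27 higher in MEF than in NPC, all called. Hoxa7, between them and Hoxa5, was 0.77 higher and not called. Hoxa10 had 7.95 and 8.09 in MEF, against 4.09, 4.46 and 4.59 in NPC, on a probe set with a shared-sequence suffix. The other Hoxa10 probe set differed by 0.061 between MEF and NPC and was not called. Hoxa5, the third lower gene along the cluster, had 6.87 and 6.94 in MEF, against 8.67, 8.63 and 8.50 in NPC. With the deposited scaling its difference was -0.87, under the minimum. For Hoxa3 the direction depends on the probe set: the second one gave 0.54, higher in MEF and not called.

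In the other clusters 0 genes were called lower in MEF than in NPC. Higher were 6 of 9 in Hoxb, 5 of 7 in Hoxc and 4 of 8 in Hoxd. Hoxb2 differed by 3.39 ± 0.19 (10.5-fold, limma adjusted p = 1.64e-06) and Hoxd13 by 3.45 ± 0.36. Over all clusters 11 of 14 posterior genes were higher in MEF, and the other 3 were Hoxb13, Hoxc13 and Hoxd9. Hoxc4, higher in MEF than in ES cells, had 6.54 and 6.69 in MEF, against 4.09, 7.48 and 7.39 in NPC. The MEF arrays lay between NPC 1 and the other NPC arrays, and the difference of 0.30 had a 95% interval of -1.65 to 2.24. Without NPC 1 the sign turned, with a difference of -0.83 that was under the minimum (limma adjusted p = 0.0026, range over the alternatives 0.0026 to 0.994).

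Probe sets of the same gene bore on these calls. Fitted singly, 30 of 48 Hox probe sets were higher in MEF than in ES cells and 0 lower, where 9.82% of all 45037 probe sets were called higher and 9.54% lower. Between NPC and ES cells 5 of 48 were higher and 0 lower, against 8.99% and 8.86% of all probe sets, so the higher count is near the background share. Between MEF and NPC 26 of 48 were higher and 3 lower, against 8.10% and 8.10%. Of the 11 genes with several, 5 had all of them called between MEF and ES cells, 5 some and 1 none. Between NPC and ES cells these numbers were 1, 3 and 7. No gene had probe sets called in opposite directions. Values of Hoxa3, Hoxa10 and Hoxb6 rest on shared-sequence suffixes.

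Hox proteins bind DNA together with TALE homeodomain partners of the Pbx, Meis and Pknox families, and 8 such genes were measured. Meis1, Meis2, Meis3 and Pknox2 were called higher in MEF than in ES cells and also in NPC than in ES cells, 4 of 8 each, and 0 were lower. Of all genes, 12.2% were called higher and 12.8% lower in MEF than in ES cells, and 10.0% and 12.9% in NPC. Both counts use the same ES arrays. Median differences over the 8 were 0.93 for MEF and 1.08 for NPC. Meis2 had 7.49 and 7.82 in MEF and 7.32, 7.48 and 7.27 in NPC, against 5.00, 5.29 and 5.01 in ES cells, differences of 2.56 and 2.26 from ES cells. Meis1 differed by 1.84 in MEF and 2.10 in NPC, Pknox2 by 1.90 and 1.71, and Meis3 by 1.06 and 1.39. The MEF and NPC arrays lay above the ES arrays in each of these genes. Between MEF and NPC 0 of 8 were called by limma; at an unadjusted p under 0.05 there were 2. Without probe sets of shared sequence, Meis2 was 0.82 higher in MEF than in ES cells (adjusted p = 0.0524), and Meis1 was called 1.02 lower in MEF than in NPC (log2 difference -1.02). The remaining list members Pbx2, Pbx3, Pbx4 and Pknox1 differed from ES cells by -0.84 to 0.80 and were not called.

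**Figure D4:**
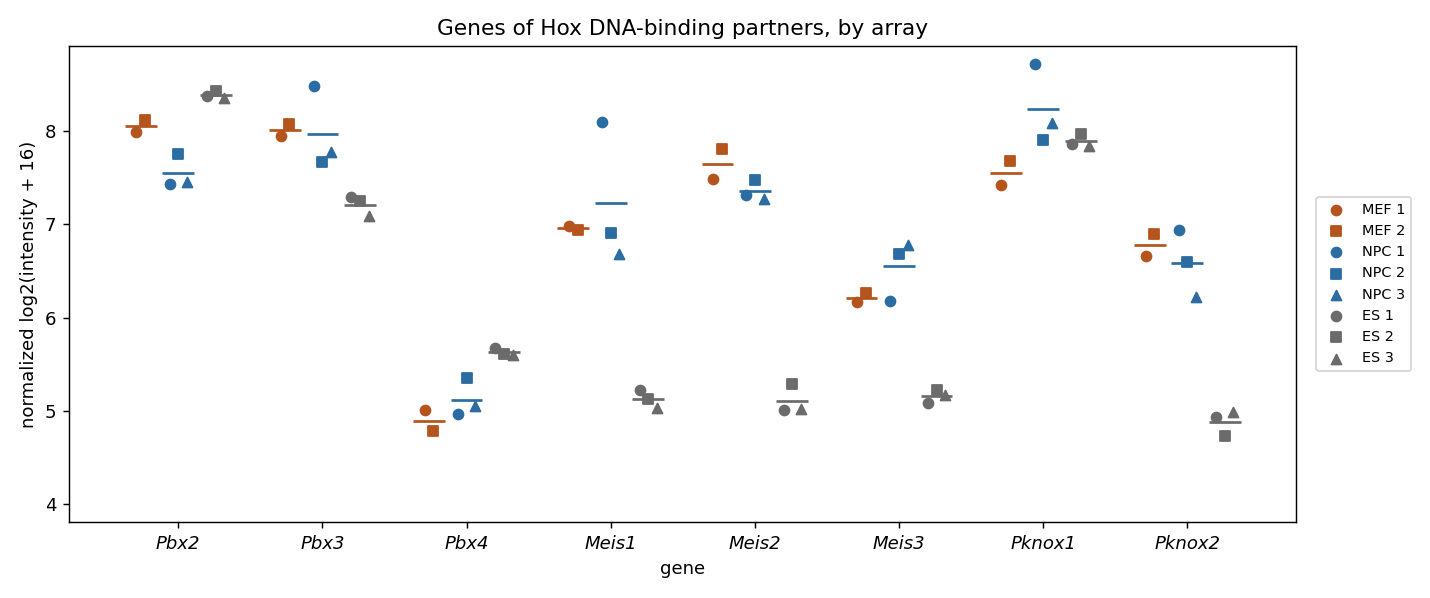
Normalized log2(intensity + 16) of the 8 measured TALE partner genes on each array. Within a gene MEF, NPC and ES follow from left to right, the marker shape gives the replicate number and the line is the group mean. At Meis1, Meis2, Meis3 and Pknox2 the ES arrays lie between 4.73 and 5.29, below all MEF and NPC arrays.

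Retinoic acid and Cdx factors switch Hox clusters on in the embryo. Of 10 measured genes of this list (Cyp26c1 was not analysed here), 4 were higher and 0 lower in MEF than in ES cells, where 12.2% and 12.8% of all genes were. They were Aldh1a2 (2.74), which makes retinoic acid, Cyp26b1 (2.24), which breaks it down, the receptor gene Rarb (1.29) and Gdf11 (1.12), a signal of the trunk to tail transition. In NPC 0 were higher than in ES cells (10.0% of all genes) and 2 receptor genes were lower (12.9% of all genes), Rara (-2.26) and Rarg (-2.07). Rarg had 5.97, 5.60 and 5.48 in NPC, against 7.81, 7.79 and 7.66 in ES cells. The Cdx1, Cdx2 and Cdx4 genes were not called in either comparison, with log2 signals of 4.04 to 4.88 over all arrays. Aldh1a2 had 7.53 and 7.65 in MEF, 4.08, 4.18 and 4.07 in NPC and 5.19, 5.02 and 4.33 in ES cells.

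Polycomb and MLL genes, which keep Hox clusters off or on, moved in both directions. Of 18 measured, 2 were higher and 8 lower in MEF than in ES cells, and 4 were higher and 7 lower in NPC than in ES cells. Of all genes, 12.2% were called higher and 12.8% lower in MEF, and 10.0% and 12.9% in NPC. The 2 of 18 higher in MEF are near the 12.2%. Bmi1 and Phc2, of Polycomb repressive complex 1, were higher in both, while Cbx7 and Phc1, also of complex 1, were called lower in both. Eed and Suz12, core subunits of complex 2, its partner Jarid2 and the MLL partner Wdr5 were called lower in both too. In MEF the counts move with the scaling: 3 were higher and 4 lower with median centring, and 6 higher and 3 lower with the deposited scaling. Under both, Eed, Suz12, Ezh2 and Kmt2b were no longer called lower in MEF, and neither was Wdr5 with the deposited scaling. Under both scalings the NPC counts stayed at 4 and 7. Bmi1 had 9.35 and 9.26 in MEF and 10.62, 10.41 and 10.37 in NPC, against 6.78, 6.80 and 6.52 in ES cells.

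Of 14 measured genes beside or within the clusters, 3 were higher and 3 lower in MEF than in ES cells, where 12.2% and 12.8% of all genes were. Higher were 2 RNAs transcribed from the clusters, Hoxa11os (2.83) and Hoxb5os (1.95), and Lnpk (1.06), next to the Hoxd cluster. Hoxa11os had 7.08 and 7.30 in MEF, against 4.78, 4.15 and 4.15 in ES cells; its probe set has a shared-sequence suffix, and without such probe sets the difference was 0.11 (adjusted p = 0.518). Lower in MEF were the flanking genes Skap2 (-1.75) and Snx10 (-1.70) of the Hoxa side and Calcoco2 (-3.14) of the Hoxb side. In NPC Snx10 and Calcoco2 were lower than in ES cells, 2 of 14 where 12.9% of all genes were lower, and 0 of the 14 were higher.

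Limb and trunk factors of other families were given beside the Hox genes because both mark position. Of 9, 7 were higher and 0 lower in MEF than in ES cells, where 12.2% and 12.8% of all genes were. The hindlimb factor genes Tbx4 and Pitx1 were 1.99 and 1.98 higher. Tbx5 and Lmx1b of this list differed by 0.75 and 0.51 and were not called. The labels give no body region for the MEF. Tbx4 had 7.05 and 6.99 in MEF, against 5.04, 5.15 and 4.89 in ES cells, and Pitx1 had 6.43 and 6.33 in MEF, against 4.12, 4.25 and 4.82. Prrx1, a gene of limb mesenchyme, had 11.01 and 10.96 in MEF, against 5.31, 4.78 and 4.87 in ES cells, and Tbx15, Shox2, Hand2 and Msx1 were higher by 3.59, 3.48, 3.19 and 1.49. In NPC Tbx15, Shox2 and Hand2 were called higher than in ES cells (2.69, 2.24 and 1.06), 3 of 9 where 10.0% of all genes were. Hand2 lost its call in 10 of 24 alternatives, and its NPC 1 value of 4.46 lay below the 4.53 of ES 2. Shox2 had 5.01 in NPC 1, 7.48 in NPC 2 and 7.50 in NPC 3, against 4.68, 4.24 and 4.35 in ES cells, so that NPC 1 was low at this gene as at Hoxc4. Without NPC 1 the Shox2 difference was 3.08.

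Genes of the brain regions in front of the Hox domains were described in NPC from a list of 8 measured forebrain and midbrain factors. In NPC 4 were higher than in ES cells (Six3, Lhx2, Emx2 and En1) and 1 lower (Otx2), where 10.0% and 12.9% of all genes were. Six3 and En1 lost their calls in 7 and 5 of 24 alternatives. In MEF 3 of the 8 were called higher than in ES cells (Lhx2, Emx2 and En1) and 2 lower (Otx2 and En2). The shares of all genes were 12.2% and 12.8%. Between MEF and NPC, Emx1 (1.28) and En1 (1.21) were called higher in MEF, where 10.5% of all genes were. Called lower in MEF were 4 of the 8, Six3 (-1.69), Lhx2 (-1.90), Otx1 (-1.12) and En2 (-3.38), against 7.95% of all genes. Of 2 hindbrain factors measured, Egr2 was higher and Gbx2 lower in NPC. Egr2 had 7.23, 5.97 and 5.89 in NPC, against 4.11, 4.66 and 4.11 in ES cells. In MEF Egr2 had 8.53 and 8.49, and it was called higher there than in ES cells (4.22) and in NPC (2.15). Gbx2 was called lower in MEF than in ES cells (-3.16) and was not called between MEF and NPC. Of the 3 ParaHox genes, relatives of the Hox genes outside the clusters, 0 were called by limma in any of the 3 comparisons, and the counts at an unadjusted p under 0.05 were 0, 1 and 0 for NPC against ES, MEF against ES and MEF against NPC.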

How the data were processed

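Total RNA of 2 MEF, 3 NPC and 3 ES samples had been hybridised to 1 array each. The deposited table gave a linear intensity for each probe set on each array. Per the submitters' processing notes the software was GCOS 1.4; which algorithm and scaling it ran are not given in the sources used here. The deposited arrays differed 1.65-fold in median, with both MEF arrays brightest, and the number of arrays limits the precision.

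After 64 control probe sets were left out of 45101, the deposited intensities were turned into log2(intensity + 16) and quantile normalized. Of the remaining probe sets, 34945 were listed with 1 gene, 932 with several and 9160 with none. The brightest probe set stood for each of 18193 genes. limma 3.58.1 in R 4.3.3 was fitted to all 8 arrays with a variance trend, and p-values were adjusted over all genes. The procedure was tested on simulated data. Promoters came from RefSeq on GRCm38.p6, with a window for 19 of the 33 genes.

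The members, lists, thresholds and alternatives were chosen with earlier results of these data known. Any Hox gene could be named, and of the lists any called member. Uncalled members of the TALE list, the Cdx genes, Tbx5 and Lmx1b were added after their values were seen. Lists were described by counts and medians, without a list test. The alternatives were 3 other scalings, pseudocounts of 1 and 64, filters on dim genes, other ways of using several probe sets, other variance models, other thresholds, the replicate number as a block, and leaving out each array.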

Additional observations from a re-analysis of the deposited data

How the results depend on the processing

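The counts of Hox genes called in NPC against ES cells (4), MEF against ES cells (23) and MEF against NPC (22) stayed within 1.5 times under most alternatives. In the order NPC against ES, MEF against ES and MEF against NPC, leaving out single arrays gave 4 to 6, 21 to 24 and 21 to 23. NPC against ES gave 8 calls (5 higher, 3 lower) with a pseudocount of 1, 7 with array weights (6 higher, 1 lower) and 7 with no minimum difference (5 higher, 2 lower). With a pseudocount of 64 the count fell to 12 for MEF against ES and 12 for MEF against NPC, and with a minimum of 2 log2 units to 13 and 12. With the dimmest 50% of genes left out, just 2 Hox genes were tested, and 2, 2 and 1 were called. Of the called genes, 2 of 4, 9 of 23 and 9 of 22 were called under every alternative that tested them, and 4, 21 and 21 without each array in turn.

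Without probe sets of shared sequence, Hoxa10 was at -0.058 in MEF against ES (adjusted p = 0.866), Hoxa3 at 0.54 in MEF against NPC (adjusted p = 0.107) and Pdgfrb at 0.081 in NPC against ES (adjusted p = 0.754), each opposite in sign to the probe set used. The cause was not tested. No shared deviation by replicate number was seen: deviations from the group means correlated at -0.02 to 0.02 in 7 same-numbered pairs. These values cannot show whether same-numbered samples were handled together. With the number as a replicate block, 5, 22 and 22 Hox genes were called.

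Scaling moved all genes together. The deposited scaling shifted the median of all genes to 0.32 for MEF against ES and 0.43 for MEF against NPC. The share of calls that were higher in MEF was 48.9%, 65.1% and 79.3% against ES, and 56.9%, 74.1% and 87.5% against NPC, with quantile, median and deposited scaling in that order. Hox calls were 24 and 22 with median scaling (24 and 19 higher) and 25 and 22 with deposited scaling (25 and 20 higher). Dim signal limits these data: 8 Hox genes in MEF, 22 in NPC and 28 in ES cells were at or below the olfactory receptor mark.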

Other observations

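Hox genes had a wider median spread among the ES arrays than all genes together. The median SD of a Hox gene was 0.0763 log2 units among MEF arrays, 0.202 among NPC arrays and 0.226 among ES arrays, against 0.0733, 0.211 and 0.135 over all genes. In ES cells 4 Hox genes had a range above 1 log2 unit (1.8% of all genes had one). They were Hoxa9, Hoxb9, Hoxc6 and Hoxc13. Hoxc6 had 4.16, 5.43 and 5.66 in the ES arrays, and Hoxa9 had 5.52, 4.69 and 5.85. The values lie low on the scale, where an intensity of 0 is 4, and the spread was not tested against that of other dim genes.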
